A study of Mus musculus with 9 samples.

Results

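The genes described here are 10 genes of lipid handling in macrophages (Apoe, Lpl, Abca1, Abcg1, Trem2, Cd36, Fabp4, Fabp5, Plin2 and Nr1h3), which were selected on their symbols from 18049 genes listed for 9 clones of primary cells. Levels of these clones were known when the members were chosen, so the levels are given as a description. The clones (murine primary cells, MPC) were grown from pancreatic tumors of WTg mice, whose genotype is EL1-Luc/EL1-Tag x CAG-Mettl3, and each was sequenced once in bulk with a stranded mRNA kit. In these mice the elastase I promoter drives T antigen and luciferase in acinar cells, and the CAG promoter drives Mettl3, the catalytic subunit of the m6A RNA methyltransferase, in all cells. All 9 clones shared this genotype and no clone of EL1 mice was in the series, so no comparison of genotypes could be made. The treatment was labelled none, although a protocol field named NMS-P937, and the clones were taken as untreated. Ages were not given. The deposited column names fell under 3 prefixes whose meaning was not stated, and the libraries are called A1, B1 to B4 and C1 to C4 after them. Prefix and sex of the source cannot be told apart for B and C, because Xist was 29664 to 32912 normalized counts in B and at most 8.39 in the other libraries, and the Y-linked gene Ddx3y was at 0 in B and 2376 to 2720 in the others. Whether libraries of a prefix came from 1 mouse was not stated, so p-values measure the spread between these libraries.

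Macrophages take up lipoproteins and fatty acids, store them as droplets and return cholesterol to acceptors outside the cell. LXR alpha, encoded by Nr1h3, is a nuclear receptor that is switched on by oxysterols and pairs with RXR. In macrophages it drives genes of cholesterol efflux, among them Abca1, Abcg1 and Apoe, and also Lpl. In tumors and in adipose tissue, macrophages with high Trem2, Apoe, Fabp5, Cd36 and Lpl are known as lipid-associated macrophages.

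Of the 10 genes, 6 had an upstream window in the RefSeq promoter table of build GRCm38.p6. They are Apoe with 3 starts, Nr1h3 with 2, and Abca1, Trem2, Cd36 and Plin2 with 1 each. Lpl, Abcg1, Fabp4 and Fabp5 had no entry. A pair of short motifs was searched on both strands of the 250 bases before each start, because nuclear receptors and the macrophage factor PU.1 are known to bind such letters. The nuclear receptor hexamer AGGTCA, read on either strand, was found in 3 of 9 windows of the members, those of Trem2, Cd36 and Plin2, and in 14% of 32851 windows of all genes. The PU.1 core GAGGAA, read on either strand, was found in 3 of 9 windows, that of Trem2 and those of 2 starts of Apoe, and in 23.3% of all windows. In these windows they did not overlap each other. The whole window of Trem2, which holds both motifs, is shown with 30 bases around 1 motif each of Plin2, Cd36 and Apoe. Capitals mark letters that match on either strand. For Apoe the stretch shown is at position -132 of start 3, and the match at -250 of start 1 is not shown. The 3 windows of Apoe lie within the span of the gene.
Trem2, chr17:48346151-48346400, plus strand: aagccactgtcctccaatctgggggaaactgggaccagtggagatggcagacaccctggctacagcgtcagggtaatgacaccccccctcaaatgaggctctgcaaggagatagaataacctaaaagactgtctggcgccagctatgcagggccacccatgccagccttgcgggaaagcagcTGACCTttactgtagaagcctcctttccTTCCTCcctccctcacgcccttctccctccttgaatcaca
Plin2, chr4:86670260-86670289, minus strand: tttcaggaccccTGACCTaagtcagacagc
Cd36, chr5:17836107-17836136, minus strand: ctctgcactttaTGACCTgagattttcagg
Apoe, chr7:19698513-19698542, minus strand: gccgggaagaaaGAGGAAtgtaagctggac
A match in these letters is a description of the sequence, and binding was not measured.

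The libraries held 12198034 to 20453888 reads, lowest in A1. Levels are normalized counts, in which 1 read was worth 1.26 to 2.19, and a level of 3 reads (3.79 to 6.57 normalized counts) was taken as the floor. All 10 members lay above it in every library. The lowest member value was 40 reads of Cd36 in A1, which was 87.5 normalized counts (95% Wilson interval 64.3 to 119). The labels call the cells fibroblasts. All 14 fibroblast markers were listed, 13 of them above the floor in every library, with Fn1, Col1a1, Acta2 and Col1a2 among the highest. All 16 macrophage markers were listed too, each above the floor in every library and led by Lyz2, C1qb, C1qc and C1qa. The summed macrophage markers were 700089 normalized counts in A1, 743490 to 856023 in B and 580790 to 913141 in C. The summed fibroblast markers were 876618 in A1, 369380 to 591983 in B and 513106 to 1011078 in C. Of the 6 adipocyte markers only Plin1 was listed, with at most 21.0 normalized counts, and the defining marker Adipoq was not listed. Of the 5 epithelial markers, Epcam was at 0 in all 9 libraries, Krt8 reached at most 1.29 normalized counts and Krt18 at most 6.47. The other 2 were above the floor in every library, Krt19 at 7.23 to 145 and Cdh1 at 8.91 to 152. In bulk RNA, fewer cells of a type and less RNA per cell cannot be told apart.

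Apoe, the apolipoprotein that macrophages secrete to carry cholesterol, varied 70.2-fold over the 9 clones, mostly because of 1 library. It reached 403773, 321817, 458540 and 329743 normalized counts in B1 to B4 and 139418, 124178, 222690 and 116111 in C1 to C4, but 6534 in A1. The mean was 378468 ± 64898 in B (SD, n = 4) and 150599 ± 49022 in C (SD, n = 4). Every B library lay above every C library, and A1 lay below all of them. It took 1.81% of the reads in B3 and 0.0245% in A1. The gene lies on chr7:19696244-19701310.

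**Figure D1:**
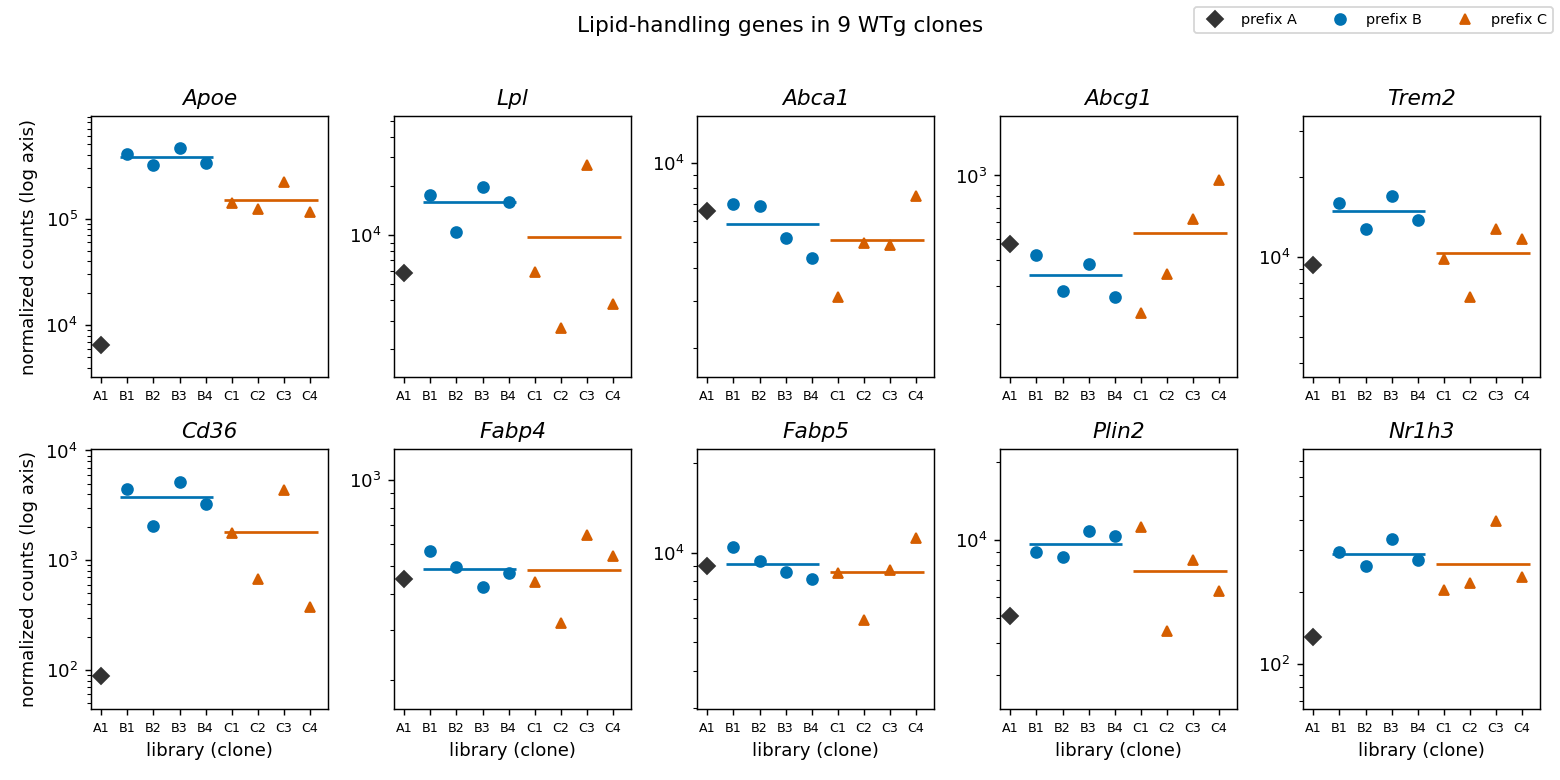
Normalized counts (log axis, with its own range in each panel) of the 10 genes in 9 libraries. Points are single libraries, coloured by column-name prefix, and lines are the means of prefixes B and C. Apoe, Cd36 and Nr1h3 lie lowest in A1, and Apoe and Trem2 are higher in every B than in every C library.

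Lpl, the lipoprotein lipase that frees fatty acids from triglyceride-rich particles, ranged 9.86-fold over the 9 clones, from 2708 normalized counts in C2 to 26693 in C3. Its values were 17509, 10421, 19667 and 15893 in B1 to B4, 5919, 2708, 26693 and 3812 in C1 to C4, and 5871 in A1. C3 lay above all B libraries while the other three of its prefix lay below them, so the groups overlapped. C3 was also the highest library for Pparg, a fatty acid receptor that is known to drive Lpl and Cd36, with 1044 normalized counts against 244 to 576 in the other 8. The order of the other libraries differed. Pparg was next highest in C4 (576) and C2 (551), which had the lowest Lpl and Cd36 of B and C, and it was 244 to 442 in B. The 6 acinar markers summed to 144 normalized counts in A1, 145 to 313 in B and 177 to 2415 in C, highest in C3. Only 1 of them, Cela1, was above the floor in every library, at 144 to 293. Ctrb1 was 610 in C3, 43.7 in C2 and at most 7.6 in the rest. The part of Pparg and of acinar RNA in the Lpl level of C3 was not tested.

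Cd36, a scavenger receptor that takes up oxidized lipoproteins and long-chain fatty acids, had the largest spread of the 10 on the log2 scale, with an SD of 1.99 over 9 clones. It stood at 4474, 2052, 5206 and 3241 normalized counts in B1 to B4, at 1767, 679, 4356 and 372 in C1 to C4, and at 87.5 in A1. As for Lpl, C3 was the highest of its prefix, and B and C overlapped.

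Nr1h3, the LXR alpha gene, ranged 3.07-fold over the 9 clones. Its values were 294, 256, 331 and 273 normalized counts in B1 to B4, 203, 217, 396 and 230 in C1 to C4, and 129 in A1. C3 was highest and A1 lowest.

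Trem2, a lipid-sensing receptor of macrophages that signals through Tyrobp, varied less, by 2.41-fold over 9 clones. It had 15987, 12820, 17018 and 13762 normalized counts in B1 to B4, 9826, 7063, 12813 and 11709 in C1 to C4, and 9344 in A1. Every B library lay above every C library, although the lowest B value of 12820 was only just above the highest C value of 12813.

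Abca1 and Abcg1, the transporters that pass cholesterol to lipid-poor apolipoprotein A-I and to HDL, lay in another order over the clones than Apoe. Abca1 had 7000, 6881, 5170 and 4348 normalized counts in B1 to B4, 3101, 4959, 4868 and 7485 in C1 to C4, and 6583 in A1. Abcg1 had 421, 286, 383 and 268 in B1 to B4, 224, 343, 624 and 953 in C1 to C4, and 475 in A1. Both were highest in C4 and lowest in C1, and B and C overlapped for both.

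Fabp4 and Fabp5, which carry fatty acids in the cytoplasm, and Plin2, which coats lipid droplets, had narrower ranges than Apoe, Lpl and Cd36. Fabp4 lay between 317 and 645 normalized counts with a median of 474, and Fabp5 between 5917 and 11222 with a median of 8769. Plin2 lay between 4431 and 11268 with a median of 8574. C2 was the lowest library for all of Fabp4, Fabp5 and Plin2. The SD of log2 values over the 9 clones was 0.29 for Fabp4, 0.26 for Fabp5 and 0.48 for Plin2. For 10 of 10 members this SD was above 0.25, the median of the 14705 genes that averaged 10 normalized counts or more, while the members' own median was 0.47.

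The library A1 is the only one of its prefix, so its differences have no replicate. It lay below all other 8 libraries for 3 of the 10 members (Apoe, Cd36 and Nr1h3) and within their range for 7, while this held for 19.5% of 16962 genes. Apoe in A1 was 17.8-fold below the lowest and 70.2-fold below the highest of the other 8. Only 48 genes lay further below the median of the 8, on the log2 scale, than Apoe. For Cd36 the same ratios were 4.25 and 59.5, and for Nr1h3 they were 1.57 and 3.07. At a threshold of at least 4-fold below the median of the 8, A1 passed for 2 of the 10 members, Apoe and Cd36, against 5.49% of all genes. Among the 16 macrophage markers A1 was below the other 8 for 3, above them for 1 and within their range for 12. Among the 14 fibroblast markers it was above the other 8 for 7, while this held for 18.7% of all genes. A1 also had the fewest reads. The part of fibroblast content and depth in the low Apoe and Cd36 was not tested.

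To see which members move with the column-name prefix, B was compared with C by limma over 16985 genes, on log2(normalized counts + 1), with Benjamini-Hochberg adjustment. Of the 10 members, 0 passed an adjusted p of 0.05, while 29 genes did, 0.171% of those tested. At an unadjusted p under 0.05 there were 2 members, Apoe and Trem2, and 3141 genes. For Apoe the log2 difference was 1.36 (SE 0.28, 95% interval 0.74 to 1.99), with an adjusted p of 0.11 by limma. For Trem2 it was 0.55 (95% interval 0.13 to 0.97, limma adjusted p = 0.20). Cd36 differed by 1.58 (95% interval -0.00082 to 3.16, limma adjusted p = 0.27) and Lpl by 1.28 (95% interval -0.15 to 2.71, limma adjusted p = 0.31). The other 6 members had differences from -0.47 (Abcg1) to 0.42 (Plin2). The estimate was above 0 for 9 of the 10, with a median of 0.33 beside 0.016 for all genes tested.

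Apoe and Trem2 were the 2 members for which every B library lay above every C library, which 5.24% of all genes tested also showed. Library C3 decided whether 2 members were called. Without it, 263 genes passed (1.55%), and among the members Apoe (log2 difference 1.57, limma adjusted p = 0.035) and Lpl (1.97, limma adjusted p = 0.035) were higher in B. Over all alternatives the limma adjusted p was from 0.035 to 0.30 for Apoe and from 0.035 to 0.57 for Lpl. Without C3 the difference of Cd36 was 2.20 (limma adjusted p = 0.082) and that of Nr1h3 0.41 (limma adjusted p = 0.13). There 5 members had an unadjusted p under 0.05, as did 3843 of 16959 genes. With the macrophage markers the direction was alike, with a median log2 difference of 0.40 over the 16 markers and 3 of them higher in every B than in every C library. The fibroblast markers had a median of -0.69, although Dcn (1.79), Lum (2.07) and Fap (0.20) had differences above 0. Of either list, 0 markers passed the test. Their part in the Apoe and Trem2 differences was not tested.

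**Figure D2:**
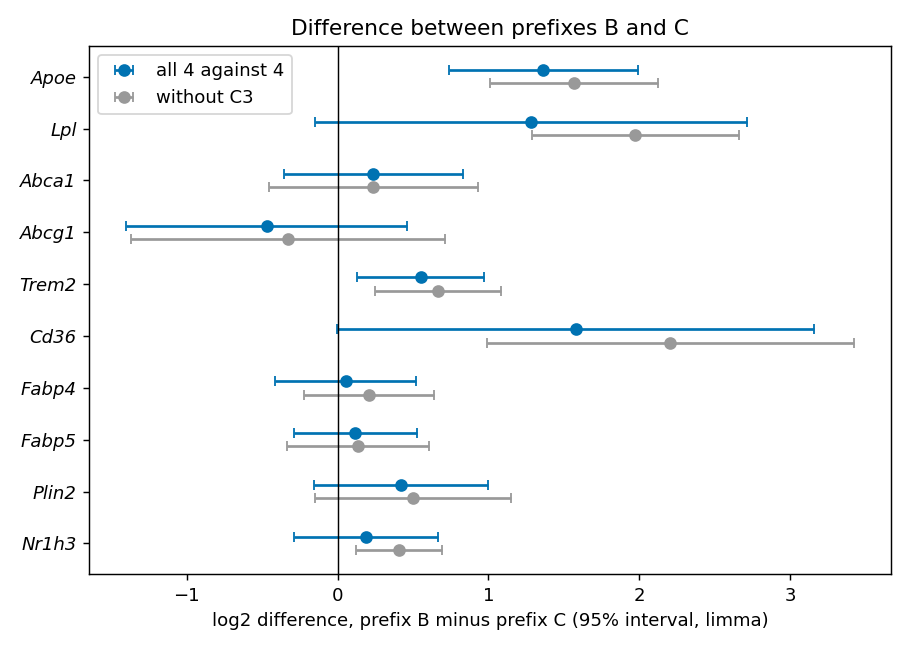
Difference of log2(normalized counts + 1) between prefixes B and C for the 10 genes, with 95% intervals from limma, for all libraries (n = 4 and 4) and without C3 (n = 4 and 3). With all libraries the intervals of Apoe and Trem2 lie above 0, and without C3 also those of Lpl, Cd36 and Nr1h3.

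Within prefixes, the highest correlations were among Apoe, Lpl, Cd36 and Nr1h3, a group picked after the matrix was seen. After centring log2 values within B and within C (n = 8), the values for Apoe were with Cd36 (Pearson's r = 0.91, rho = 0.93), Lpl (r = 0.92, rho = 0.95) and Nr1h3 (r = 0.91, rho = 0.69), and Lpl with Cd36 gave r = 0.89 and rho = 0.83. Lpl with Nr1h3 gave r = 0.90 and rho = 0.83. Cd36 with Nr1h3 (r = 0.72, rho = 0.43) lay below some pairs outside the group, of which Abca1 with Abcg1 was highest (r = 0.80). Over all 45 pairs, r was above 0.7 for 11 and below 0 for 7. In the exact permutation test over 576 arrangements within prefixes, 5 pairs had p under 0.05 and 0 passed after adjustment over 45. The smallest p was 0.0017 for Apoe with Cd36, with an adjusted p of 0.078 (rho, p = 0.0035, adjusted p = 0.12). In C3, Apoe, Lpl, Cd36 and Nr1h3 were all highest of their prefix. Without C3 (n = 7), r was 0.79 for Apoe with Cd36 (exact permutation p = 0.021), 0.70 for Apoe with Lpl (exact p = 0.076) and 0.77 for Lpl with Cd36 (exact p = 0.11). For the pairs of Nr1h3 it was 0.63 with Apoe (exact p = 0.26), 0.34 with Lpl (exact p = 0.46) and 0.10 with Cd36 (exact p = 0.79), lower than with C3. Without the 2 libraries farthest from the median of the first gene, r was 0.84 for Apoe with Cd36 and 0.90 for Lpl with Cd36, but 0.15 for Apoe with Nr1h3 and 0.44 for Lpl with Nr1h3.

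**Figure D3:**
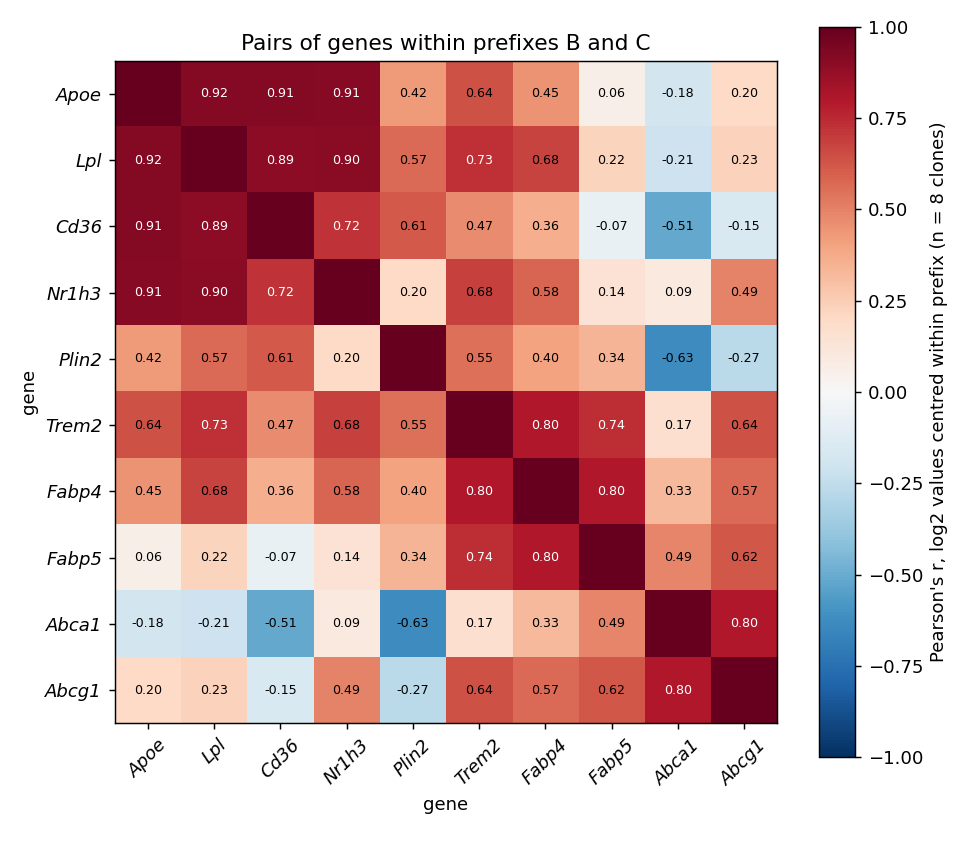
Pearson's r for each of the 45 pairs of genes over 8 clones, on log2(normalized counts + 1) centred within prefixes B and C, with colour and number giving r. Among Apoe, Lpl, Cd36 and Nr1h3, r was from 0.72 to 0.92, and for other pairs it reached 0.80. Without C3, r for the pairs of Nr1h3 with Apoe, Lpl and Cd36 was from 0.10 to 0.63.

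For 8 pairs of known regulator and target, partner or family genes, the exact permutation test was adjusted over the 8. Apoe and Trem2 differ between B and C without overlap, so pairs with them are given within prefixes (n = 8) and the others over all 9 clones. Apoe with Lpl gave r = 0.92 (exact p = 0.0087, adjusted p = 0.069) and rho = 0.95 (exact p = 0.0052, adjusted p = 0.042), and r fell to 0.66 without the 2 farthest libraries, with an exact p of 0.25, while without C3 the rho was 0.82 (exact p = 0.028, adjusted p = 0.074). Nr1h3 with Apoe gave r = 0.91 (exact p = 0.035, adjusted p = 0.093) and rho = 0.69 (exact p = 0.099, adjusted p = 0.2).

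Fabp4 with Fabp5 gave r = 0.78 over 9 clones (exact p = 0.021, adjusted p = 0.086) and rho = 0.68 (exact p = 0.05, adjusted p = 0.2), and r = 0.84 without the 2 farthest libraries. Without C3 it was 0.95 (exact permutation p = 0.002, adjusted p = 0.016), where the adjusted p was 0.065 to 0.19 over the other alternatives. Abca1 with Abcg1 gave r = 0.61 (exact p = 0.079, adjusted p = 0.16) and rho = 0.62 (exact p = 0.086, adjusted p = 0.2), and r = 0.093 without the 2 farthest. For Abca1 with Abcg1, r within prefixes was 0.80, and for Fabp4 with Fabp5 it was likewise 0.80. Trem2 with Apoe gave r = 0.64 within prefixes (exact p = 0.2, adjusted p = 0.31) and rho = 0.50 (exact p = 0.32, adjusted p = 0.51). Cd36 with Fabp4 gave r = 0.29 and rho = 0.22 (exact p = 0.43 and 0.58, adjusted p = 0.57 and 0.66).

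No relation was detected between the receptor and its transporter targets. Nr1h3 with Abca1 gave r = -0.082 (exact p = 0.83, adjusted p = 0.83) and rho = 0.017 (exact p = 0.98, adjusted p = 0.98), and Nr1h3 with Abcg1 gave r = 0.10 (exact p = 0.79, adjusted p = 0.83) and rho = 0.22 (exact p = 0.58, adjusted p = 0.66). Within prefixes they were 0.095 and 0.49.

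A macrophage score, the mean z-score of the 16 markers, was -0.60 in A1, 0.95, 0.59, 0.99 and 0.049 in B1 to B4, and -0.82, -1.24, -0.20 and 0.27 in C1 to C4. Over the 10 members, 0 relations with the score passed after adjustment over 10, where the adjusted exact permutation p was from 0.21 to 0.65. For Trem2, within prefixes, the relation was (r = 0.83, exact p = 0.036, adjusted p = 0.21, rho = 0.79, exact p = 0.042, adjusted p = 0.22) and for Fabp5, over 9 clones, it was (r = 0.66, exact p = 0.043, adjusted p = 0.21, rho = 0.55, exact p = 0.13, adjusted p = 0.22). Without the 2 farthest libraries these were r = 0.72 and 0.60. Within prefixes, r was 0.85 for Fabp5 (exact p = 0.030, adjusted p = 0.12) and 0.84 for Abcg1 (exact p = 0.036, adjusted p = 0.12), which over 9 clones was 0.18. Apoe within prefixes had r = 0.32 (exact p = 0.58, adjusted p = 0.64) and rho = 0.19 (exact p = 0.73, adjusted p = 0.73).

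The level of Mettl3 does not separate reads of the endogenous gene from those of the transgene of these mice. It was 2184 normalized counts in A1 and 468 to 621 in the other 8 (mean 529 ± 58.5, SD, n = 8). The slope of each gene on log2 Mettl3 was therefore set mostly by A1. By limma over all 9 clones, 0 of 10 members passed, beside 417 of 16961 genes (2.46%). Apoe had a slope of -2.24 (SE 0.49, limma adjusted p = 0.050, just short of the threshold), Cd36 of -1.97 (SE 0.67, limma adjusted p = 0.19) and Nr1h3 of -0.47 (SE 0.16, limma adjusted p = 0.21). These 3 members were the ones with an unadjusted p under 0.05, as were 2476 genes. Without A1 the direction turned, with a slope of 3.82 for Apoe (SE 1.36, limma adjusted p = 0.44). There 9 of 10 members had a positive slope, and 0 of 16984 genes passed (1772 at an unadjusted p under 0.05). In these 8 libraries Mettl3 was 515 to 621 normalized counts in B and 468 to 502 in C. A slope on Mettl3 without A1 therefore cannot be told apart from the difference between prefixes B and C. Mettl3 and whatever else sets A1 apart cannot be told apart.

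**Figure D4:**
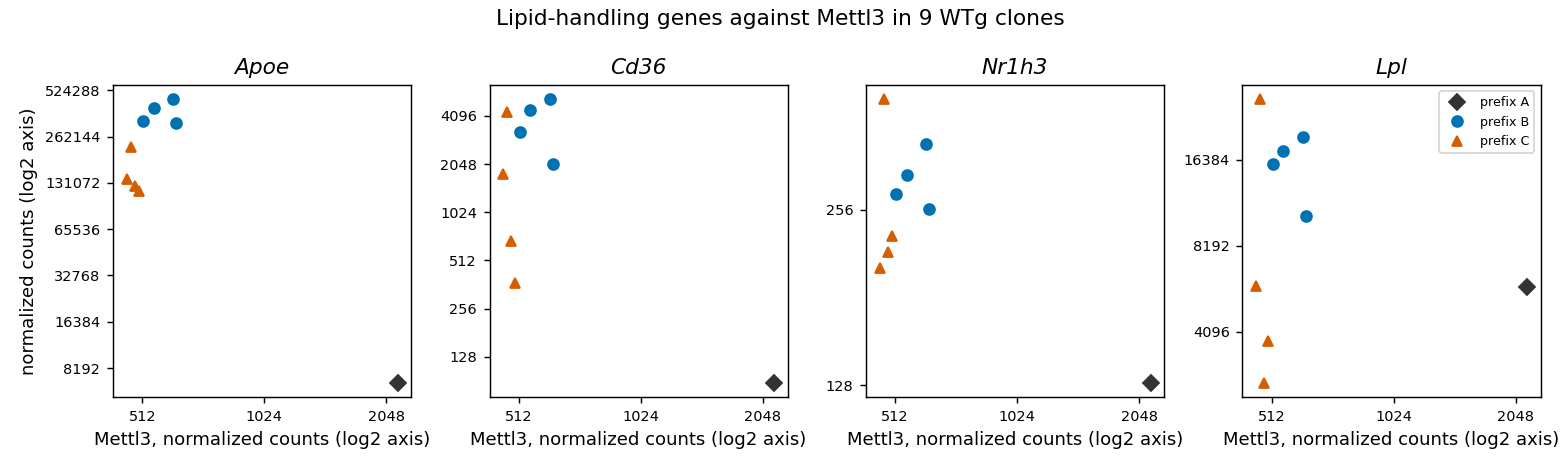
Normalized counts of Apoe, Cd36, Nr1h3 and Lpl against those of Mettl3 in the 9 libraries (both axes log2). A1 stands alone at 2184 normalized counts of Mettl3, and the other 8 libraries lie between 468 and 621.

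Other genes of the pathway were taken from 5 lists, and 0 of their tested genes passed in B against C. Of the 14 listed nuclear receptor and LXR target genes (of 16), the 4 highest by mean, in counts without correction for transcript length as in each list, were Rxra, Scd2, Nr1h2 and Srebf1, and the median log2 difference was 0.13. A1 was below the other 8 libraries for 3 of them and above for 4, beside 19.5% and 18.7% of all genes. Rxra, the partner of LXR, was 2280 normalized counts in A1, 4124 to 5830 in B and 3067 to 4190 in C. Scd2, a desaturase that LXR and SREBP-1c drive, was 8123 in A1 against 1897 to 4286 in the other 8.

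Of the 14 listed lipid droplet and lipolysis genes (of 16), Lipa, Nceh1, Soat1 and Plin3 were highest, and 1, Mgll, fell with Mettl3 (slope -3.56, SE 0.60, limma adjusted p = 0.015). Mgll, which cleaves monoglycerides, was at 0 in A1 and at 60.9 to 545 in the other 8, so that its slope depends on the pseudocount. The 12 listed uptake genes (of 14) had Lrp1, Msr1 and Slc27a1 among the highest, and 0 of them passed with Mettl3. Lrp1, a receptor of Apoe, was 80994 normalized counts in A1, 107961 to 131496 in B and 93219 to 108968 in C. Olr1, another scavenger receptor, was 21.9 in A1, 239 to 704 in B and 9.79 to 389 in C. Among the other fatty acid binding proteins only Fabp3 and Fabp7 were listed, of 5 genes.

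Of the 12 TREM2 partners and lipid-associated macrophage genes, all were listed and above the floor, with Spp1, Gpnmb, Lgals3 and Npc2 highest. Tyrobp, the adaptor of Trem2, was 10679 in A1, 12262 to 16310 in B and 7940 to 12936 in C. Gpnmb, a lysosomal glycoprotein, was 32306 in A1 and 46838 to 146685 in the other 8. Spp1, or osteopontin, was 195956 in A1, above the other 8 at 27264 to 158055, and lowest in C3. Among all the lists, macrophage markers included, Cd14 rose with Mettl3 (slope 0.40, limma adjusted p = 0.012), as did the fibroblast marker Fap (slope 1.17, limma adjusted p = 0.036), and both were highest in A1.

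The genes whose log2 values were most like those of each member over 9 clones were found among the 12301 genes that averaged 50 normalized counts or more, by Pearson's r and without a test. For Apoe they were Syp (r = 0.99), Bag6 (0.99) and Ly86 (0.99), and without A1 these were 0.97, 0.95 and 0.94. Ly86, which encodes a partner of the toll-like receptor family member CD180, was 67.8 normalized counts in A1 and 990 to 3645 in the other 8. For Cd36 they were Spast, Nxt2 and Hgsnat, for Nr1h3 Kmt2d, Rel and Fryl, and for Lpl Zfp953, Arhgap27 and Tmem150b. For Trem2 they included Myo1f and Mob1a, for Abca1 they were Lpcat2, Ms4a14 and Casp4, and for Abcg1 Trim32, Gm20559 and Rap1a. For Fabp4 they were Gpank1, Cbx8 and Rabep1, for Fabp5 they included Ccng2 and Os9, and for Plin2 they were Atg12, Bcl7b and Tmbim4. For the genes named here, r over 9 clones was between 0.91 and 0.99, and each was among the 3 highest of 12301 values.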

How the data were processed

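RNA-sequencing values of 9 clones in 1 group (WTg) were used. The authors deposited 1 log2 value per gene and library, made by scaling each library by 1 factor and adding an offset of 4, so that 2 is the lowest value. The submitters' processing notes name FastQC 0.11.9, STAR 2.7.10, RSEM 1.3.3 and the build GRCm38. The table also holds 6 columns of other studies, which were not analysed here. Normalized counts were the antilog minus 4. Low values were whole multiples of the value of 1 read, and 100% of nonzero values under 1000 reads were whole within 0.1 read. Depth and Wilson intervals come from these reads and cover counting error only. Of 18049 identifiers, 18033 matched the name table, and coordinates are from RefSeq GRCm38.p6.

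The plan had a branch for counts. The deposited unit is log2, so limma (lmFit and eBayes with a trend) was used on log2(normalized counts + 1) for genes with a mean of at least 1. Members and lists were chosen with earlier results of these data known. All 10 members are named, with the 4 highest genes by mean of each list, every list gene past a test, and the 3 genes most like each member. A few genes that this rule names are not reported here. Pparg, Ctrb1, Cela1, Epcam, Krt8, Krt18, Krt19, Cdh1, Xist, Ddx3y, Olr1, Tyrobp, Dcn and Lum were picked after their values were seen. The tests were checked on simulated data. Alternatives were a pseudocount of 0.1, other filters, upper quartile and total scaling, voom on recovered reads, no trend, centring within prefixes and leaving out libraries. Total scaling of the prefix difference and the pairs, upper quartile scaling of the Mettl3 slope the other pseudocount for the score and leaving out C3 for the pairs were chosen after seeing the data. Fits were made in R 4.3.3 (limma 3.58.1) and all else in Python 3.11.15, using scipy 1.17.1 for ranks, pandas 2.3.3 and numpy 2.4.6 for tables, and matplotlib 3.10.9 for plots.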

Additional observations from a re-analysis of the deposited data

Results flagged for a closer look

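On normalized counts, none of the 10 members had a library that stood apart from the other 8 by Dixon's ratio, the gap to the nearest library divided by the whole range. On the log2 scale of the tests, looked at for the members only, 2 of 10 did, Apoe with A1 lowest (0.677) and Fabp5 with C2 lowest (0.504). Of 63 member and pathway list genes looked at on normalized counts, 11 did. A rate of 1 in 20, or 3.15 genes, would hold for normally distributed values and independent genes. These counts were not log-transformed and the genes share the same 9 libraries, so 11 beside 3.15 cannot show an excess over chance.

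Library C3 was apart on the high side for 3 genes of lipid storage and its control. The ratio was 0.584 for Pparg, with 1044 normalized counts against 244 to 576 in the other 8. It was 0.789 for Plin1, with 21.0 against at most 4.43, and 0.661 for G0s2, an inhibitor of the lipase Pnpla2, with 858 against 14.2 to 300.3. Lpl and Nr1h3 were also highest in C3. Library A1 was apart on the high side for the desaturases Scd1 (0.63), with 2190 against 763 to 1291, and Scd2 (0.616), with 8123 against 1897 to 4286. Apoe, Cd36 and Nr1h3 were lowest in A1.

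Library B3 was apart for Apoc1 (0.516, highest, at 13 normalized counts), the scavenger receptor gene Marco (0.602, highest, 187) and Slc27a4 (0.609, lowest, 1058). Library C4 was apart on the high side for Apoc2 (0.517, with 970 normalized counts) and Trem3 (0.518, with 69.4), and C1 for Fabp3 (0.506, with 504). No cause was tested for any of these.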

How the results depend on the processing

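The mean levels of all 10 members moved by less than 1 SD under upper quartile scaling, total scaling and without A1. The factors were at most 0.027 for upper quartile and 0.049 for total scaling on the log2 scale. Such factors could hardly move a mean by the SD between clones, so the 2 scalings are a weak check. Leaving out 1 library, however far it lies from the rest, cannot move a mean by that SD. The result without A1 was therefore fixed in advance and does not show whether the levels depend on A1. In B against C, 28 to 34 genes were called under the other scalings, a pseudocount of 0.1 and a filter at a mean of 10, 15 without a filter, 17 without a trend, 22 with voom and 10 to 263 when 1 library was left out. The 2 calls of members, Apoe and Lpl, came without C3. With 1 library left out, the difference ranged from -0.14 to 0.21 for Fabp4 and from -0.051 to 0.26 for Fabp5, turning direction in 2 and 1 of the 8 cases.

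The slopes on Mettl3 depended on A1. The main count of 417 genes became 656 with a pseudocount of 0.1, 238 with a filter at a mean of 50, 69 with voom and 0 without A1. Apoe was called with a pseudocount of 0.1 (slope -2.24, limma adjusted p = 0.038), with voom (-2.42, 0.018) and with upper quartile scaling (-2.28, 0.040), and its adjusted p ranged from 0.018 to 0.44 over all alternatives. Without A1 the slope turned to 3.82 for Apoe, 2.81 for Lpl, -0.67 for Abcg1, 1.57 for Trem2, 3.27 for Cd36, 0.013 for Fabp4, 0.78 for Plin2 and 0.56 for Nr1h3. Without A1, Mettl3 was higher in every B than in every C library, so these slopes and the prefix difference cannot be told apart. With 1 value of Mettl3 far from the rest, A1 alone sets the slope. The relation of Nr1h3 with Abca1 turned from r = -0.082 to 0.18 without A1, 0.36 without the 2 farthest libraries and 0.095 within prefixes, and that of Nr1h3 with Abcg1 from 0.10 to -0.13 without C3. Fabp4 with Fabp5 passed adjustment only without C3 (r = 0.95). No paired analysis was possible because all libraries belong to 1 group and no replicate numbers are shared between groups. All members had at least 40 reads in every library, and the part of depth in their levels was not tested. Each clone was sequenced once and prefix A has 1 library.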
